A study of Mus musculus with 6 samples.

Results

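Translation initiation and elongation factors carry messenger RNA (mRNA) into protein synthesis, and the levels of their own mRNAs were compared here between mouse embryonic stem cells (mESCs) and cardiac precursor cell cultures (CPCCs). The set was taken by name: every gene listed for either cell type that lies on an autosome and whose symbol begins with Eif or Eef followed by a digit. It holds 65 of the 16279 genes listed, and 3 further genes with such symbols, on the sex chromosomes, were left out. The mESCs were male F1 hybrids of a C57BL/6J mother and a CAST/EiJ father, kept as 3 clones in medium with 2 inhibitors and Lif. The CPCCs were derived from those mESCs through hanging-drop embryoid bodies, were grown in medium with Egf and Fgf2, and are described by the study as mixed cultures. Each cell type had 3 bulk RNA-seq libraries of polyA+ RNA, named here after their columns (mESCs S01 to S03, CPCCs S04 to S06). Both cell types carry the same F1 genome and differ in culture medium, passage and differentiation together, which cannot be told apart. In bulk samples, fewer cells of a type and less RNA per cell cannot be told apart either.

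Initiation brings the initiator tRNA and the small ribosomal subunit to a start codon. The factor eIF2, loaded with GTP, delivers the initiator tRNA and is recharged by the exchange factor eIF2B, while 4 kinases can phosphorylate eIF2 and so slow initiation during stress. The cap-binding protein eIF4E, the scaffold eIF4G and the helicase eIF4A form the complex eIF4F on the capped end of the mRNA, eIF4E-binding proteins (4E-BPs) hold eIF4E off the scaffold, and eIF3 links the scaffold to the small subunit. In elongation eEF1A delivers aminoacyl-tRNA, the eEF1B subunits recharge eEF1A, eEF2 moves the ribosome along, and eIF5A helps at difficult peptide bonds. Pluripotent stem cells are known for a low rate of protein synthesis relative to their differentiating progeny, and 4E-BP1 is known as one of the controls of that rate.

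Several results below concern proteins that compete for the same partner or that carry a regulated residue, so the coding bases of those sites are shown first. All are reference sequence of GRCm38 (C57BL/6J), read along the coding strand of the principal transcript in GENCODE release M21 and not from the libraries, and all lie in coding exons. In the first set, the capitals mark the codons of the motif by which a protein docks on eIF4E, found by a search of the translated coding sequence. The scaffolds eIF4G1 and eIF4G3 and the inhibitors 4E-BP1, 4E-BP2 and 4E-T (gene *Eif4enif1*) each held 1 match. The product of *Eif4ebp3* was not searched. The stretches lie at chr16:20681218-20681247 (plus strand, exon 12 of 32) for *Eif4g1*, chr4:138156647-138156676 (plus strand, exon 15 of 35) for *Eif4g3*, chr8:27273334-27273363 (plus strand, exon 2 of 3) for *Eif4ebp1*, chr10:61435063-61435092 (minus strand, exon 2 of 3) for *Eif4ebp2*, and, joined over the splice of exons 2 and 3 of 19, between bases 3203739 and 3213277 of chromosome 11 (plus strand) for *Eif4enif1*.
Eif4g1: cgtTATGACAGAGAATTCCTGCTGggcttt
Eif4g3: cagTATGACCGGGAGTTCCTACTGgacatc
Eif4ebp1: atcTATGACCGGAAATTTCTGATGgagtgt
Eif4ebp2: attTATGACCGAAAGTTTCTGTTGgaccgt
Eif4enif1: cgcTATACGAAAGAGGAGCTCTTGgatata

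The second set shows the cap-binding family, of which *Eif4e* and *Eif4e2* were listed for both cell types and *Eif4e1b* and *Eif4e3* for 1 each. The capitals mark the codon of the first of the residues that stack on the cap in eIF4E (codon 56, counted from the start codon), and the codons aligned with it in the other members. These stretches lie at chr3:138547687-138547716 (plus strand, exon 4 of 8) for *Eif4e*, chr13:54784837-54784866 (plus strand, exon 2 of 6) for *Eif4e1b*, chr1:87221004-87221033 (plus strand, exon 3 of 7) for *Eif4e2* and chr6:99651746-99651775 (minus strand, exon 2 of 7) for *Eif4e3*.
Eif4e: aaaagcaaaactTGGcaagcaaaccttcga
Eif4e1b: cgaagccgggccTGGcaggacaacctgcag
Eif4e2: agctcgcagagcTATgagcagaacatcaag
Eif4e3: acagcagccgagTGTgcctcgaatctgaag

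The last set shows the codons of residues modified by enzymes whose genes were also measured. The capitals mark the serine codon of *Eif2s1* that the eIF2 kinases act on (codon 52), the lysine codon that becomes hypusine in *Eif5a* and *Eif5a2* (codon 50 in both), and the threonine codon of *Eef2* that the kinase eEF2K acts on (codon 57). They lie at chr12:78866668-78866697 (plus strand, exon 2 of 8), chr11:69919151-69919180 (minus strand, exon 3 of 7), chr3:28782187-28782216 (plus strand, exon 2 of 5) and chr10:81177818-81177847 (plus strand, exon 2 of 14).
Eif2s1: cttagtgaattaTCCagacgacgtatccgt
Eif5a: tcgaagactggcAAGcatggccatgccaag
Eif5a2: tccaagactgggAAGcatggtcatgccaag
Eef2: gagacgcgcttcACTgacactcgcaaggat

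The libraries held between 6442639 and 11436062 estimated counts. Values below are in CPM (counts on a scale of 1000000 per library), normalised between libraries with TMM factors, and each table lists only genes with at least 10 counts over its 3 libraries. The 6 mESC markers summed to between 2017 and 2568 CPM in mESC libraries and between 103.7 and 168.8 CPM in CPCC libraries. The 8 CPCC markers summed to between 7.88 and 10.2 CPM and between 195.4 and 313.7 CPM, with *Nkx2-5* at 1.59, 0 and 0.917 CPM in CPCCs. *Fst* (mean 140.3 CPM) and *Tnnt2* (mean 51.6 CPM, with 102.6 CPM in S04) made up most of the CPCC sum. *Gata4*, *Isl1* and *Pdgfra* had CPCC means of 3.46, 1.96 and 4.42 CPM and did not pass the threshold used below. Markers of other cells moved as well: the 7 mesenchymal markers rose from at most 132.5 CPM to at least 13800 CPM, the 10 neural markers lay between 437 and 466.9 CPM and between 1009 and 1277 CPM, and the 7 skeletal muscle markers lay at most at 5.27 CPM and at least at 81.0 CPM, with *Myod1*, *Myf5* and *Ckm* in neither table. Their part in the results on translation factors was not tested. Over the translation factors, S03 departed from the other mESC libraries and S04 from the other CPCC libraries in a like way, as described at the end, and the calls that changed without them are given below. The fit without both was added after the data were seen. Leaving out the library that departs in each group is apt to lower the spread, so smaller p-values of that fit are no further support.

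Most translation factors were lower in CPCCs. Of the 65, 62 were listed in both tables, all 62 passed the filter on low counts, and 42 of them (67.7%) differed between the cell types with an adjusted p below 0.05 (quasi-likelihood test of edgeR, adjusted by Benjamini-Hochberg over 12471 genes), where 61.4% of all genes tested did so. The directions were unequal: 37 (59.7%) fell and 5 (8.06%) rose, against 29.7% and 31.7% of all genes. At a change of at least 2-fold, 16 fell and 4 rose, with 19.5% and 25.5% of all genes. The median log2 fold change (CPCC over mESC) of the 62 was -0.65, with quartiles of -1.02 and -0.28, and that of all genes was 0.03, with quartiles of -0.84 and 1.14. In 50 of the 62 (80.6%) the libraries of the cell types did not overlap, with CPCCs lower in 44 and higher in 6, where 69.7% of all genes tested did not overlap (34.5% lower and 35.3% higher).

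Added up, the 65 genes came to 21060, 20710 and 22890 CPM in S01, S02 and S03 and to 15150, 13070 and 13290 CPM in S04, S05 and S06. Every CPCC library was below every mESC library. As a percentage of the TMM-normalised library size, the sum fell from between 2.07% and 2.29% to between 1.31% and 1.52%. That size is scaled and covers only genes in both tables, so these percentages are not shares of all counts in a library. *Eef1a1* alone made up between 12.7% and 20.3% of the sum of the 65 genes. The 5 genes that rose were *Eif4g3*, *Eef2k*, *Eif2ak2*, *Eif2ak3* and *Eif5a2*, the first a scaffold, the next 3 kinases that restrain translation, and the last a paralog of eIF5A.

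**Figure D1:**
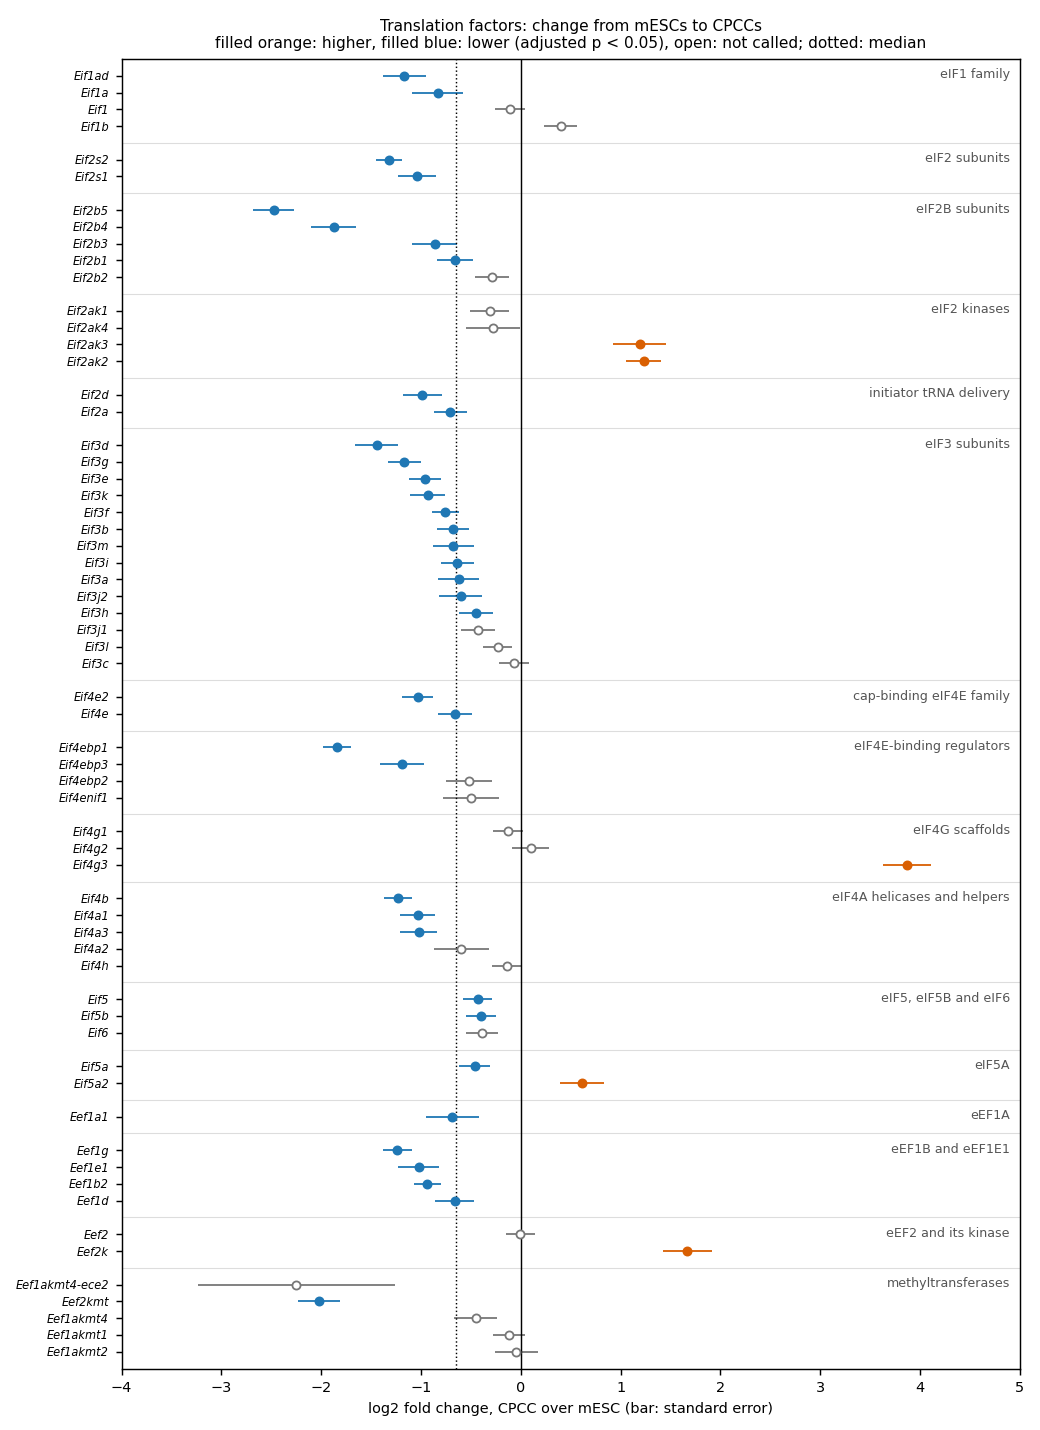
Log2 fold change (CPCC over mESC, with its standard error) of the 62 translation factors listed for both cell types, grouped by role. Filled points passed the threshold, 37 of them lower in CPCCs (blue) and 5 higher (orange), open points did not, and the dotted line is the median of -0.65. *Eif4g3* stands at 3.87, far to the right of its paralogs.

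Among the eIF4G scaffolds, *Eif4g3* rose 14.6-fold while its paralogs did not pass the threshold. Its product, eIF4G3 (also called eIF4GII), can take the place of eIF4G1 in eIF4F. *Eif4g3* (chromosome 4, 137993456 to 138207080) had 54, 39 and 59 counts per mESC library but 1315, 835 and 876 per CPCC library. In CPM these were 8.34, 5.74 and 8.63 against 130.7, 101.3 and 100.4, so that the lowest CPCC library lay far above the highest mESC library. On the log2 scale it rose by 3.87 (standard error 0.24, adjusted p = 3.66e-06, edgeR), and the value stayed between 3.71 and 3.98 with each library left out in turn.

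*Eif4g1* (chromosome 16, 20672727 to 20692884), the main scaffold of eIF4F, had 181.2, 201.2 and 164.1 CPM in mESCs against 164.8, 170.7 and 165.1 CPM in CPCCs, with overlapping groups (log2 fold change -0.13, standard error 0.15, adjusted p = 0.491, edgeR). *Eif4g2*, which encodes the related protein DAP5 that does not bind eIF4E, had 1622, 1523 and 2058 CPM and then 2259, 1569 and 1738 CPM, and again the groups overlapped (0.10, standard error 0.18, adjusted p = 0.667, edgeR). It was high in S03 and in S04, and without S04 its log2 fold change was -0.05. Per kilobase of the principal transcript, the mean level of *Eif4g3* went from 1.23 to 18.1 CPM and that of *Eif4g1* from 32.3 to 29.6 CPM. In mESCs *Eif4g3* ranked last of the 62 genes that had a level per length there, and in CPCCs it ranked 47 of 63.

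Of the 4 cap-binding genes, *Eif4e* and *Eif4e2* fell, and the other two were each listed for 1 cell type only. *Eif4e* (chromosome 3, 138526191 to 138559697), the cap-binding subunit of eIF4F, had 303.4, 263.4 and 355.7 CPM in mESCs against 217.4, 175.7 and 191.8 CPM in CPCCs. These groups did not overlap (log2 fold change -0.66, standard error 0.17, adjusted p = 0.00881, edgeR). *Eif4e2* (chromosome 1, 87213911 to 87240489), whose product 4EHP binds caps but not the scaffold eIF4G and acts in repression, had 348.2, 357.9 and 297.5 CPM and then 165.6, 170.3 and 154.1 CPM. It fell 2.05-fold (log2 fold change -1.03, standard error 0.15, adjusted p = 0.000383, edgeR).

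*Eif4e3*, a family member with an atypical cap-binding pocket, was listed for CPCCs only, with 152, 132 and 86 counts, or 15.1, 16.0 and 9.86 CPM. All 3 CPCC libraries lay well above the floor of 3 counts per library, and the CPCC mean of *Eif4e3* was 30.5-fold that floor in mESCs. *Eif4e1b*, known from oocytes, was listed for mESCs only, with 47, 51 and 30 counts, or 7.26, 7.502 and 4.39 CPM. Its mESC mean was 19.0-fold the same floor in CPCCs. Per kilobase *Eif4e3* reached 5.43 ± 1.32 CPM in CPCCs (SD, n = 3) and *Eif4e1b* 3.00 ± 0.81 CPM in mESCs (SD, n = 3), against 39.1 ± 4.21 CPM (SD, n = 3) and 61.6 ± 9.27 CPM (SD, n = 3) for *Eif4e* in the same cells, so both were minor members of the family at this depth.

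Of the regulators that compete for eIF4E, *Eif4ebp1* fell most. *Eif4ebp1* (chromosome 8, 27260327 to 27275657), the mTOR-controlled inhibitor 4E-BP1, had 1118, 1198 and 1203 CPM in mESCs against 302.8, 336.9 and 345.0 CPM in CPCCs. The groups lay far apart, a 3.57-fold fall (log2 fold change -1.84, standard error 0.14, adjusted p = 1.08e-05, edgeR). Per kilobase it ranked 3 of the 62 genes with a level in mESCs and 10 of 63 in CPCCs. *Eif4ebp3* had 87.0, 79.4 and 72.1 CPM and then 26.2, 43.4 and 35.0 CPM, and it too fell (-1.19, standard error 0.22, adjusted p = 0.00133, edgeR). *Eif4ebp2* had 100.7, 101.2 and 80.6 CPM and then 45.6, 71.7 and 80.2 CPM. It missed the threshold with groups that only just did not overlap (-0.52, standard error 0.23, adjusted p = 0.0794, edgeR), and passed it without S06 (-0.68, adjusted p = 0.0405), while without S04 the value was -0.30 (adjusted p = 0.149). *Eif4enif1*, which encodes the eIF4E transporter 4E-T, had 105.0, 79.0 and 159.6 CPM and then 104.7, 68.3 and 69.9 CPM, high in S03 and S04 (-0.50, standard error 0.28, adjusted p = 0.151, edgeR), with an adjusted p of 0.0244 without S04 and 0.569 without S03. Summed, these 4 regulators went from between 1411 and 1515 CPM to between 479.4 and 530.1 CPM, and the cap-binding family went from between 628.8 and 658.9 CPM to between 355.8 and 398.1 CPM.

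The helicase and its helpers were split. *Eif4a1* (chromosome 11, 69666936 to 69672424), the main helicase of eIF4F, had 290.7, 278.5 and 220.0 CPM in mESCs against 112.8, 129.9 and 142.7 CPM in CPCCs (log2 change -1.03, standard error 0.18, adjusted p = 0.000907, edgeR). Its paralog *Eif4a2* had 248.5, 257.7 and 391.8 CPM and then 279.3, 164.5 and 149.4 CPM, with overlapping groups (-0.60, standard error 0.28, adjusted p = 0.0872, edgeR). S04 lay above S01 and S02, and S03 lay above every other library. Without S04 the log2 fold change of *Eif4a2* was -0.92 (adjusted p = 0.00153), without S03 it was -0.36 (adjusted p = 0.322), and without both it was -0.68 (adjusted p = 0.000657). *Eif4a3*, a helicase of the exon junction complex rather than of initiation, fell by 1.02 on the log2 scale (standard error 0.19, adjusted p = 0.00131, edgeR). *Eif4b*, which stimulates the helicase, fell from 586.6, 616.8 and 626.0 CPM to 239.4, 264.6 and 276.8 CPM (log2 fold change -1.23, standard error 0.14, adjusted p = 0.000102, edgeR). *Eif4h*, a smaller relative with a like role, had 512.7, 577.3 and 521.8 CPM and then 431.0, 515.1 and 518.2 CPM, with overlapping groups (-0.14, standard error 0.15, adjusted p = 0.438, edgeR).

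**Figure D2:**
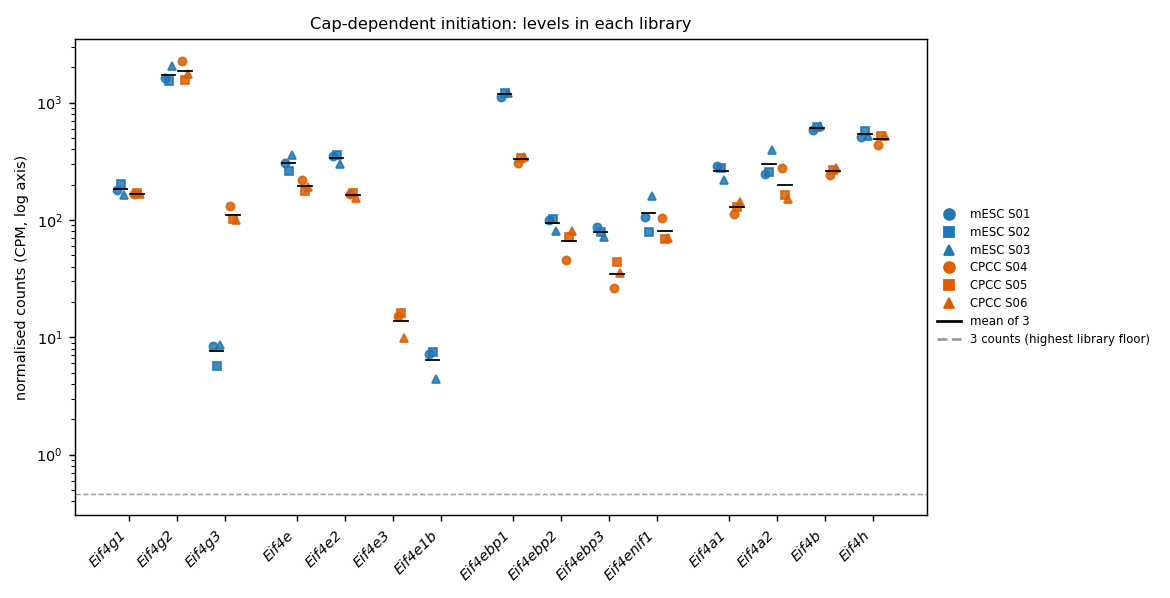
CPM (log axis) of the genes of cap-dependent initiation in each library, with 1 point per library (blue for mESCs, orange for CPCCs), the mean of 3 as a line and 3 counts in the library with the highest floor as a dashed line. *Eif4g3* rises from between 5.74 and 8.63 CPM to between 100.4 and 130.7 CPM while *Eif4g1* and *Eif4g2* overlap, *Eif4ebp1* falls from at least 1118 CPM to at most 345.0 CPM, and *Eif4e3* and *Eif4e1b* have values in 1 cell type only.

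Both eIF2 subunits of the set and 4 of the 5 subunits of its exchange factor fell, and 2 of the 4 eIF2 kinases rose. Of all genes tested, 29.7% fell and 31.7% rose. *Eif2s2*, the beta subunit (chromosome 2, 154871410 to 154892907), had 1139, 1135 and 1142 CPM in mESCs against 464.8, 434.0 and 469.1 CPM in CPCCs. The 3 libraries of each cell type were close together, with a 2.50-fold fall between them (log2 fold change -1.32, standard error 0.13, adjusted p = 4.64e-05, edgeR). *Eif2s1*, the alpha subunit that carries the phosphorylated serine, had 342.5, 332.0 and 404.1 CPM and then 216.0, 147.7 and 160.3 CPM (-1.04, standard error 0.19, adjusted p = 0.00126, edgeR). The gamma subunit is encoded on the sex chromosomes and is outside the set. *Eif2a* and *Eif2d*, alternative carriers of initiator tRNA that are not part of eIF2, fell by 0.71 and 0.99 on the log2 scale (adjusted p = 0.00523 and 0.00228, edgeR).

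All 5 eIF2B subunits had negative log2 fold changes, and 4 passed the threshold. *Eif2b5*, the catalytic epsilon subunit (chromosome 16, 20498817 to 20509326), fell most of all 62 genes, from 432.5, 419.1 and 326.4 CPM to 55.2, 78.0 and 78.4 CPM. This was a 5.57-fold fall with groups far apart (log2 fold change -2.48, standard error 0.21, adjusted p = 1.59e-05, edgeR). *Eif2b4*, the delta subunit, had 83.0, 109.9 and 76.2 CPM and then 19.4, 26.4 and 27.5 CPM (-1.88, standard error 0.22, adjusted p = 0.000119, edgeR). *Eif2b3* and *Eif2b1*, the gamma and alpha subunits, changed by -0.86 and -0.66 (adjusted p = 0.00897 and 0.0122, edgeR), the second not past the threshold without S01 or S02 (adjusted p = 0.0519 and 0.0582). *Eif2b2*, the beta subunit, had 89.0, 90.3 and 73.6 CPM against 63.5, 76.3 and 67.6 CPM, with overlapping groups (-0.29, standard error 0.17, adjusted p = 0.175, edgeR). The falls of the 4 called subunits ran from 1.58-fold to 5.57-fold. Per kilobase of transcript, their mean levels spread from 34.3 CPM (*Eif2b3*) to 153.7 CPM (*Eif2b5*) in mESCs and from 12.1 CPM (*Eif2b4*) to 43.1 CPM (*Eif2b2*) in CPCCs, so *Eif2b5* went from the highest of the 5 to the third.

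The kinases that act on eIF2 sense different stresses. *Eif2ak2*, which encodes the double-stranded RNA sensor PKR (chromosome 17, 78852550 to 78882573), had 32.9, 34.3 and 30.7 CPM in mESCs against 68.4, 85.7 and 75.8 CPM in CPCCs, a 2.35-fold rise (log2 fold change 1.23, standard error 0.17, adjusted p = 0.000317, edgeR). *Eif2ak3*, which encodes the endoplasmic reticulum stress sensor PERK (chromosome 6, 70844515 to 70905242), had 8.03, 7.65 and 8.19 CPM and then 21.3, 18.6 and 14.7 CPM, a 2.28-fold rise (1.19, standard error 0.27, adjusted p = 0.00419, edgeR). Neither gene's groups overlapped. *Eif2ak1*, the kinase HRI that senses haem and mitochondrial stress, had 47.6, 46.8 and 43.9 CPM and then 30.4, 41.8 and 39.1 CPM (-0.31, standard error 0.19, adjusted p = 0.184, edgeR). *Eif2ak4*, the amino acid sensor GCN2, had 15.6, 14.1 and 15.1 CPM and then 10.8, 10.4 and 15.6 CPM, with overlapping groups (-0.28, standard error 0.27, adjusted p = 0.389, edgeR). As sums, eIF2 subunits went from between 1467 and 1546 CPM to between 581.7 and 680.8 CPM, eIF2B subunits from between 619.8 and 808.4 CPM to between 226.3 and 297.0 CPM, and the kinases from between 97.8 and 104.1 CPM to between 130.9 and 156.6 CPM.

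**Figure D3:**
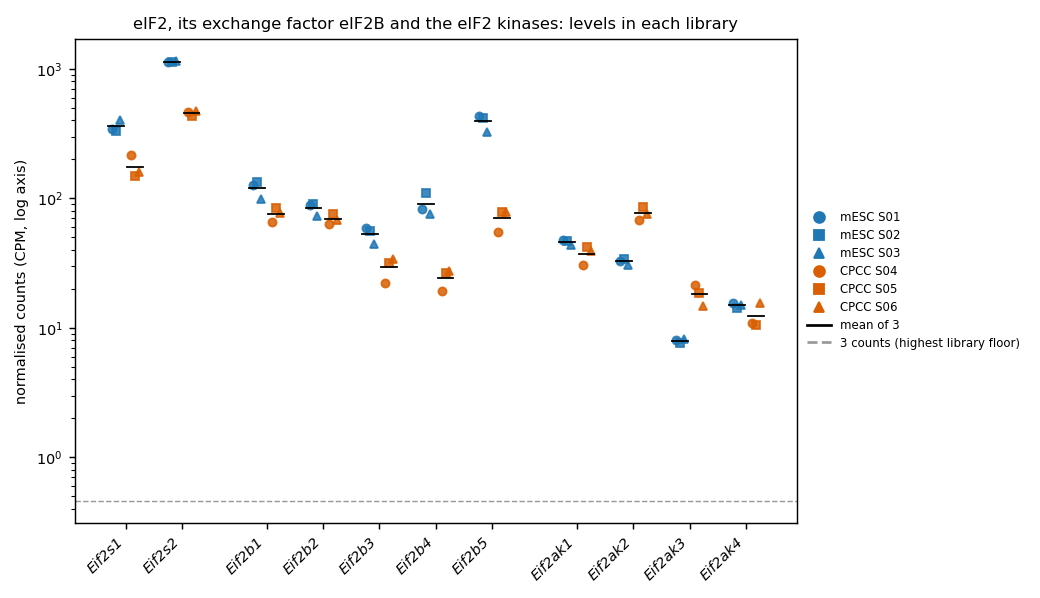
CPM (log axis) of the eIF2 subunits, the 5 eIF2B subunits and the 4 eIF2 kinases in each library, with 1 point per library, the mean of 3 as a line and 3 counts in the library with the highest floor as a dashed line. *Eif2b5* drops from between 326.4 and 432.5 CPM to between 55.2 and 78.4 CPM, while *Eif2ak2* and *Eif2ak3* are the genes of this plot whose CPCC libraries all lie above the mESC libraries.

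Of the 14 eIF3 genes, 11 fell, none rose, and 13 had CPCC libraries wholly below the mESC libraries, where 29.7% of all genes tested fell and 34.5% lay wholly below. Their sum stayed narrow within each cell type, at 4040, 4113 and 4048 CPM in mESCs against 2612, 2569 and 2524 CPM in CPCCs. *Eif3d*, a cap-contacting subunit at the edge of the complex (chromosome 15, 77958998 to 77970825), fell most, from 304.5, 319.6 and 266.3 CPM to 77.9, 123.4 and 125.6 CPM (log2 fold change -1.45, standard error 0.21, adjusted p = 0.000379, edgeR). *Eif3c*, a core subunit, changed least, with 230.3, 244.5 and 235.8 CPM against 215.3, 253.1 and 210.5 CPM and overlapping groups (-0.07, standard error 0.15, adjusted p = 0.721, edgeR). *Eif3a*, the largest core subunit, had 775.9, 746.7 and 1022 CPM and then 696.6, 445.8 and 511.1 CPM, high in S03 and in S04 (-0.62, standard error 0.21, adjusted p = 0.0263, edgeR). Its adjusted p was 0.0538 without S01, 0.107 without S03, 0.104 without S05 and 0.0675 without S06, and it was 0.000532 without S03 and S04 together. The other called subunits lay between -1.17 (*Eif3g*) and -0.45 (*Eif3h*), and *Eif3h* lost its call in 7 of 14 alternative fits, with an adjusted p of up to 0.132 without S06 and a call kept without S04 alone of the single libraries. *Eif3m* lost it without S01 or S05 (adjusted p = 0.0863 and 0.0661). *Eif3l* did not pass (-0.23, adjusted p = 0.189, edgeR).

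Counts of *Eif3j1* and *Eif3j2*, which encode the loosely attached subunit eIF3j, are uncertain. Both tables place *Eif3j2* within the same interval of chromosome 2 as *Eif3j1*, whereas the annotation used here has it on another chromosome. Their coding sequences aligned over 783 bases with 0 differences, and the transcripts share a run of 1107 bases, so how reads were divided between them depends on the authors' counting. *Eif3j1* had 84.99, 89.8 and 100.2 CPM and then 77.2, 66.2 and 60.4 CPM (log2 fold change -0.43, standard error 0.17, adjusted p = 0.0535, edgeR). *Eif3j2* had 92.2, 82.4 and 108.8 CPM and then 78.5, 48.5 and 59.6 CPM (-0.60, standard error 0.22, adjusted p = 0.0367, edgeR), and each of these calls changed in 6 of 14 alternative fits. *Eif3j1* passed without S04 (adjusted p = 0.0152), and *Eif3j2* did not pass without any of the other 5 libraries (adjusted p from 0.0537 without S02 to 0.134 without S05).

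Among the eIF1 family, eIF5, eIF5B and eIF6, 4 of 7 genes fell and none rose, where 29.7% of all genes tested fell and 31.7% rose. *Eif1*, which guards start-codon choice (chromosome 11, 100319949 to 100322100), had 412.3, 403.3 and 353.8 CPM in mESCs against 321.9, 368.2 and 395.6 CPM in CPCCs, with overlapping groups (log2 fold change -0.11, standard error 0.15, adjusted p = 0.563, edgeR). Its paralog *Eif1b* had 37.9, 37.2 and 36.7 CPM and then 46.2, 51.1 and 50.1 CPM. The CPCC libraries of *Eif1b* all lay higher, short of the threshold (0.40, standard error 0.17, adjusted p = 0.0654, edgeR), and they passed it without S04 (adjusted p = 0.0404). *Eif1ad*, a relative of eIF1A, fell from 121.1, 122.7 and 105.9 CPM to 37.1, 58.6 and 59.8 CPM (-1.17, standard error 0.22, adjusted p = 0.00141, edgeR). *Eif1a*, which helps scanning, had 574.5, 538.1 and 687.6 CPM and then 487.8, 251.5 and 272.0 CPM, highest within each group in S03 and S04 (-0.83, standard error 0.26, adjusted p = 0.019, edgeR). Its adjusted p was 0.0751 without S03, 0.0745 without S05 and 0.0575 without S06, and it was 1.58e-05 without S03 and S04 together. *Eif5*, which triggers GTP hydrolysis by eIF2, and *Eif5b*, which joins the ribosomal subunits, fell by 0.43 and 0.40 (adjusted p = 0.028 and 0.0406, edgeR) and lost the call in 5 and 7 of 14 alternative fits. These include the fits without S01, S02, S05 or S06 for both and without S03 for *Eif5b*, with an adjusted p of up to 0.112 and 0.138. *Eif6*, which keeps the subunits apart, had a log2 fold change of -0.39 (adjusted p = 0.0615, edgeR) and passed without S04 (adjusted p = 0.0488).

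In the eIF5A pair the paralogs moved in opposite directions. *Eif5a* (chromosome 11, 69916712 to 69921959) had 316.7, 296.5 and 251.6 CPM in mESCs against 198.4, 207.2 and 222.4 CPM in CPCCs (log2 change -0.46, standard error 0.16, adjusted p = 0.0277, edgeR). *Eif5a2* (chromosome 3, 28781277 to 28798847) had 22.9, 22.2 and 31.3 CPM and then 43.8, 35.8 and 37.1 CPM (0.61, standard error 0.22, adjusted p = 0.0351, edgeR). Neither pair of groups overlapped, but both calls were near the threshold: *Eif5a* lost it in 4 and *Eif5a2* in 6 of 14 alternative fits, with an adjusted p of 0.126 and 0.121 without S01. Single libraries that ended a call were S01, S02 and S05 for *Eif5a* and each of the 6 but S03 for *Eif5a2*. *Eif5a* remained the major form, with 145.7 CPM per kilobase in CPCCs against 7.74 for *Eif5a2*.

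Among elongation factors, *Eef1a1* was the most abundant translation factor and its groups overlapped. *Eef1a1* (chromosome 9, 78478454 to 78481725) had 3047, 2624 and 4655 CPM in mESCs against 2903, 1731 and 1773 CPM in CPCCs, highest within each group in S03 and S04. The means were 3442 ± 1070 CPM and 2136 ± 665 CPM (SD, n = 3 each). It passed the threshold narrowly (log2 fold change -0.69, standard error 0.27, adjusted p = 0.0475, edgeR) and lost the call in 7 of 14 alternative fits. Without S03 the log2 fold change was -0.41 (adjusted p = 0.209), without S04 it was -0.96, and without both it was -0.69 (adjusted p = 0.000168). Leaving out S01, S05 or S06 alone also ended the call, with adjusted p = 0.0767, 0.154 and 0.124. Per kilobase of the principal transcript it ranked 1 in both cell types, at 1919 and 1190 CPM, with *Eef1b2* next at 599.4 and 313.2 CPM. Per kilobase of all annotated exons, *Eif4ebp1* (534.2 CPM) lay above *Eef1b2* (459.1 CPM) in mESCs.

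*Eef1a2*, the paralog that takes over from *Eef1a1* in adult muscle and neurons, was near the limit of detection. It was listed for CPCCs only (chromosome 2, 181147692 to 181157016), with 6, 7 and 0 counts in S04, S05 and S06, where *Eef1a1* had 29200, 14273 and 15472 counts. With 3 counts per library as the floor, no fold between cell types is given, and an exchange of *Eef1a1* for *Eef1a2* was not detectable at this depth. The coding sequences of the pair were 80.1% identical over 1386 aligned bases and their longest shared run was 23 bases.

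The subunits of eEF1B, which recharge eEF1A, and their relative eEF1E1 all fell, where 29.7% of all genes tested did so. *Eef1g* (chromosome 19, 8967041 to 8978181) had 622.9, 627.2 and 542.5 CPM in mESCs against 245.4, 255.5 and 258.9 CPM in CPCCs (log2 change -1.24, standard error 0.14, adjusted p = 0.000101, edgeR). *Eef1b2*, with the exchange activity, fell from 1198, 1207 and 1082 CPM to 624.1, 606.4 and 591.6 CPM (-0.94, standard error 0.13, adjusted p = 0.000334, edgeR). *Eef1d*, a further exchange subunit, and *Eef1e1*, a small relative that belongs to the multisynthetase complex, fell by 0.66 and 1.02 (adjusted p = 0.0168 and 0.00231, edgeR), and *Eef1d* lost its call without S01 or S02 (adjusted p = 0.053 and 0.0532). Summed, the 4 genes had 2035, 2035 and 1882 CPM in mESCs against 997.9, 970.9 and 968.8 CPM in CPCCs.

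*Eef2* did not pass the threshold, and the gene of its kinase rose. *Eef2* (chromosome 10, 81176631 to 81182510), the translocase, had 789.4, 756.2 and 666.1 CPM in mESCs against 669.0, 791.4 and 745.5 CPM in CPCCs, with means of 737.2 and 735.3 CPM (log2 fold change -0.0038, standard error 0.15, adjusted p = 0.983, edgeR), and the sign of this value changed under 7 of 14 alternative fits. *Eef2k*, whose product phosphorylates and inactivates eEF2 (chromosome 7, 120842831 to 120907220), rose 3.18-fold, from 10.2, 9.27 and 13.2 CPM to 39.1, 36.9 and 28.0 CPM (1.67, standard error 0.25, adjusted p = 0.000429, edgeR). Its groups did not overlap and its call held in all 14 alternative fits.

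Of the 5 listed genes for methyltransferases that act on elongation factors, *Eef2kmt* passed the threshold. *Eef2kmt*, which methylates eEF2 (chromosome 16, 5244155 to 5255957), fell from 164.9, 150.7 and 134.9 CPM to 28.1, 44.96 and 38.2 CPM, a 4.05-fold fall (log2 fold change -2.02, standard error 0.21, adjusted p = 5.89e-05, edgeR). Its interval overlaps *Alg1* on the other strand. The enzymes that methylate eEF1A, *Eef1akmt1*, *Eef1akmt2* and *Eef1akmt4*, had log2 fold changes of -0.12, -0.05 and -0.45 (adjusted p = 0.532, 0.86 and 0.0895, edgeR). The readthrough gene *Eef1akmt4-ece2*, which shares exons with *Eef1akmt4* and *Ece2*, had 2.78, 4.95 and 3.25 CPM and then 0, 0.41 and 1.94 CPM to 2 decimals (-2.25, standard error 0.98, adjusted p = 0.0736, edgeR). It passed without S06 (-4.31, adjusted p = 0.00757) and with DESeq2 (adjusted p = 0.0497), and its division from those genes is uncertain. In all, 11 of the 65 genes overlap another listed gene, 10 of them on the other strand, and whether reads were counted by strand is not given in the sources used here.

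Ratios of related genes within a library need no scaling between libraries, so 11 pairs listed in both tables were compared as log2 ratios of counts. A two-sided exact permutation test over the 6 libraries can reach p = 0.1 at the smallest, and 7 pairs reached it with ratios that did not overlap between the cell types (adjusted over the 11 pairs, p = 0.157), so no pair could pass a threshold of 0.05. The *Eif4g1* to *Eif4g3* ratio moved most: 21.7, 35.1 and 19.0 counts of *Eif4g1* per count of *Eif4g3* in mESCs became 1.26, 1.69 and 1.65 in CPCCs, a difference of -3.99 on the log2 scale (standard error 0.30). The *Eif4ebp1* to *Eif4ebp2* ratio went from 11.1, 11.8 and 14.9 to 6.64, 4.70 and 4.30 (-1.29, standard error 0.23), and *Eif4ebp1* to *Eif4ebp3* from between 12.9 and 16.7 to between 7.76 and 11.5 (-0.63, standard error 0.20). The ratio of *Eif4b* to *Eif4h* had the smallest standard error, going from 1.14, 1.07 and 1.20 to 0.56, 0.51 and 0.53 (-1.09, standard error 0.06).

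*Eif5a* to *Eif5a2* went from 13.9, 13.4 and 8.04 to 4.53, 5.79 and 5.99 (-1.08, standard error 0.28). *Eif1* to *Eif1b* went from 10.9, 10.8 and 9.64 to 6.96, 7.21 and 7.90 (-0.51, standard error 0.08). The kinase pair *Eif2ak3* to *Eif2ak4* moved the other way, from 0.51, 0.54 and 0.54 to 1.96, 1.78 and 0.94 (1.47, standard error 0.33). Ratios overlapped between the cell types for *Eif4a1* to *Eif4a2* (difference -0.41, standard error 0.50), *Eif4g1* to *Eif4g2* (-0.21, standard error 0.27), *Eif4e* to *Eif4e2* (0.38, standard error 0.23) and *Eif3j1* to *Eif3j2* (0.19, standard error 0.17). Apart from the eIF3j pair, coding identity within the tested pairs ran from 44.7% (*Eif4g1* and *Eif4g2*) to 81.1% (*Eif1* and *Eif1b*), and no pair shared a run longer than 25 bases.

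**Figure D4:**
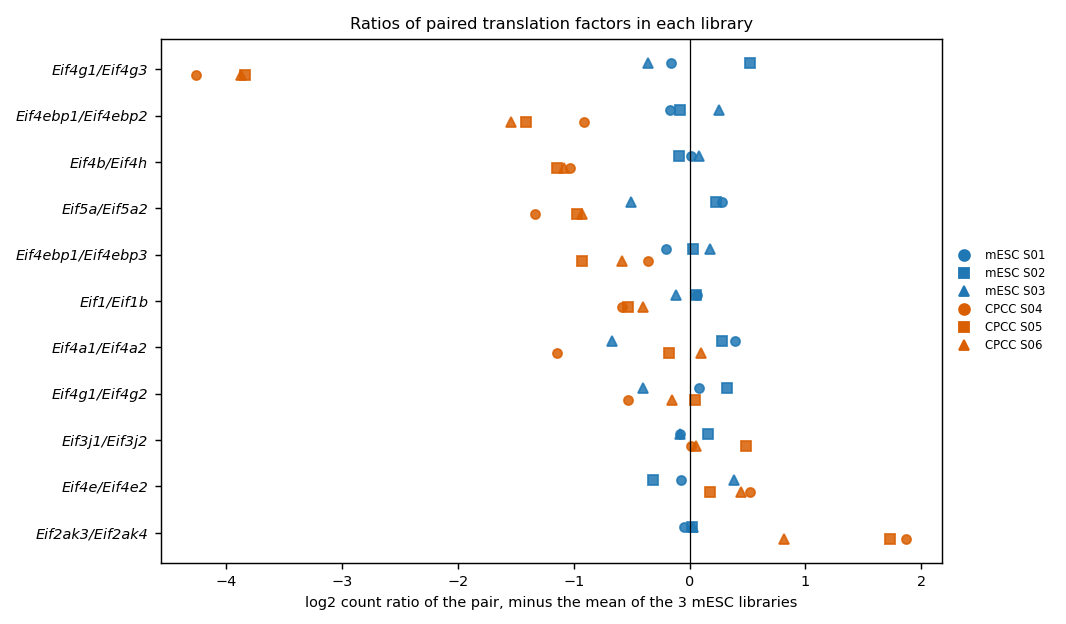
Log2 count ratio of each of the 11 pairs in each library, set to 0 at the mean of the 3 mESC libraries (blue, mESCs, and orange, CPCCs). The CPCC libraries lie apart from the mESC libraries in 7 pairs, to the left in 6 of them, most for *Eif4g1* to *Eif4g3* at a difference of -3.99, and to the right for *Eif2ak3* to *Eif2ak4*.

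Other genes of the pathway, on autosomes and outside the naming rule, were read in 6 lists. Of their 49 genes, all tested, 20 fell, 5 rose and 24 did not pass the threshold, against 29.7% and 31.7% of all genes tested that fell and rose. Their median log2 fold change was -0.42. All 5 that rose were among the 8 targets of the integrated stress response, the program that follows phosphorylation of eIF2. *Ddit3*, a transcription factor of that response also called CHOP, rose most, from 19.6, 18.5 and 22.0 CPM to 64.1, 56.02 and 36.9 CPM (log2 fold change 1.39, standard error 0.24, adjusted p = 0.0011, edgeR). *Sesn2*, *Ppp1r15a* (GADD34, which directs a phosphatase to eIF2), *Chac1* and *Ppp1r15b* rose by 1.31, 1.26, 1.07 and 0.47, the last with no call without any single library but S04 (adjusted p from 0.0522 to 0.116). The list was not of 1 direction: *Asns*, which makes asparagine, fell from 1484, 1592 and 1371 CPM to 178.1, 251.9 and 269.1 CPM (-2.67, standard error 0.19, adjusted p = 7.62e-06, edgeR), *Atf4*, the response's central transcription factor, fell by 0.51 (adjusted p = 0.0197, but 0.0801 without S01 and 0.0726 without S02), and *Trib3* did not pass (-0.14, adjusted p = 0.587).

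In the other lists no gene rose. Of 9 enzymes for hypusine and diphthamide, the modifications of eIF5A and eEF2, 5 fell, most of them *Dph1* (log2 fold change -1.12, adjusted p = 0.00366, edgeR). Of 10 mitochondrial factors 5 fell, most of them the elongation factor gene *Gfm1* (-1.37, adjusted p = 0.0002). Of 6 genes of termination and recycling 4 fell, most of them *Etf1*, the release factor eRF1 (-1.09, adjusted p = 0.000257). The call of *Gspt1* (adjusted p = 0.0278) was lost without any single library but S04 (adjusted p from 0.0519 to 0.0976) and at 10 counts in every library (0.0562). Of 5 genes of poly(A) binding 3 fell, most of them *Pabpc4* (-1.07, adjusted p = 0.0114), but without S03 its value was -0.69 and *Paip2b* fell most (-0.95). *Paip2* lost its call without S02 (adjusted p = 0.0555). *Pabpc1* did not pass (-0.44, adjusted p = 0.464), with 0.14 without S03 and -1.19 without S04 (adjusted p = 0.00834). Of 11 genes of mTOR and MNK control 1 fell, *Tsc1* (-0.64, adjusted p = 0.0223), and its call was lost without S01, S02, S03 or S06 (adjusted p from 0.0543 to 0.059) and without S03 and S04 together (0.0554). *Mtor* itself did not pass (-0.41, adjusted p = 0.087) except without S04 (adjusted p = 0.0322) or with missing genes at 3 counts (0.0484), and the median of the list was 0.11.

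Lastly, 1 library of each cell type departed from the other libraries of its group in a shared direction. Over the 62 genes, the deviation of S03 from the mean of S01 and S02 and that of S04 from the mean of S05 and S06, on log2 CPM, had a Pearson correlation of 0.741 (Spearman 0.725) and the same sign in 49 (79%). Over all 12471 genes these were 0.2 (Spearman 0.253) and 61%. Genes high in both included *Eif4enif1* (0.81 and 0.60), *Eef1a1* (0.72 and 0.73), *Eif4a2* (0.63 and 0.83), *Eef1e1* (0.44 and 0.46), *Eif3a* (0.43 and 0.54) and *Eif1a* (0.31 and 0.90), and all 5 eIF2B subunits were low in both. The deviations also followed the GC content of the principal transcript over the 61 genes that had one, with Spearman's rho of -0.598 for S03 and -0.551 for S04 (-0.317 and -0.255 over 12322 genes). Of the 31 genes at or below the median GC content of 50.3%, 19 lay above the group in S03, against 5 of the 30 above it. The log2 fold change between the cell types itself had a rho of -0.05 with GC content. These correlations are across genes, which share libraries and are not independent replicates, and the part of GC content in the deviations was not tested. With S03 and S04 both left out, 42 of the 62 fell and 6 rose. Of all genes tested in that fit 63.8% passed, and 48.2% of those were lower. Every call made with all libraries was kept in that fit, and 6 genes passed in addition: *Eif1b* (adjusted p = 0.0445), *Eif3j1* (0.0192), *Eif3l* (0.0344), *Eif4a2* (0.000657), *Eif4ebp2* (0.0305) and *Eif6* (0.0156). Because S03 and S04 were left out for their departure over these same genes, this fit is no independent support for the calls.

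**Figure D5:**
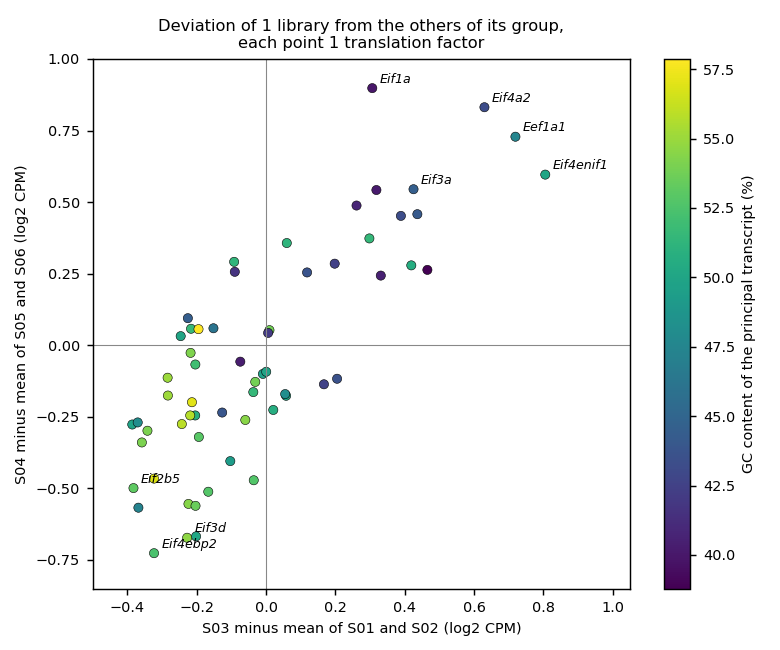
Deviation of S03 from the mean of S01 and S02 (horizontal axis, log2 CPM) against that of S04 from the mean of S05 and S06 (vertical axis), for the 61 translation factors with a GC content (colour). Points rise together from *Eif4ebp2* and *Eif2b5* at the lower left to *Eef1a1* at 0.72 and 0.73, and the dark points of low GC content lie mostly at the upper right.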

How the data were processed

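For each cell type the authors deposited a table of estimated counts per gene without normalisation, of which 17.9% to 21.5% per library are not whole numbers. The submitters' processing notes name STAR 2.7 and mm10, and the counter and its strand setting are not given in the sources used here. Each library held 6442639 to 11436062 counts. The columns could not be tied to replicate numbers or clones.

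Counts were rounded. Of 13001 genes in both tables (mESC 13761, CPCC 15519), edgeR's filterByExpr removed 530, and the 12471 left were tested with edgeR 4.0.16 (R 4.3.3, TMM, quasi-likelihood test, Benjamini-Hochberg adjustment, threshold 0.05). For genes in 1 table, folds set the mean CPM of that cell type against 3 counts per library of the other (0.298 to 0.463 CPM over all libraries). They take no account of counting error or of the spread between libraries. Pair ratios had 0.5 added to each count. Lengths, GC content and sequences came from GENCODE M21 on GRCm38. Levels and ranks per kilobase use the principal transcript unless stated. P-values measure the spread between 3 libraries per cell type.

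Alternatives were DESeq2 1.42.0, upper-quartile scaling, library totals without TMM, library sizes over whole tables, no filter, 10 counts in every library, missing genes at 3 counts, a 2-fold threshold, and each library left out. Leaving out S03 and S04 together was added after the data were seen. Members and lists were chosen with earlier results of these data known. Genes were named if they belong to a fixed pair, are listed in 1 table, are among the 5 largest rises or falls, or are the largest rise or fall of a role or list; others were named to complete a role. Figures were drawn with matplotlib 3.10.9 in Python 3.11.15. Allelic, single-cell and chromatin data were not used here.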

Additional observations from a re-analysis of the deposited data

How the results depend on the processing

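Of the 42 calls, 30 (4 higher, 26 lower) held in all 14 alternative fits, 12 were lost in at least 1, and none changed sign, while 9 of the other 20 genes passed in at least 1 fit. Across these fits the number of translation factors that fell ran from 27 to 42 and the number that rose from 4 to 6. Of all genes tested, 51.4% to 66.1% passed in these fits, and 46.8% to 48.7% of those were lower. With each library left out in turn these were 27 to 41 and 4 to 5. Asking for at least 2-fold left 16 lower. The median log2 fold change of the 62 stayed between -0.72 and -0.57, and that of all genes between 0.01 and 0.07. *Eef2* turned positive with library sizes over whole tables (0.0028), without a filter (0.0189), at 10 counts in every library (0.0645), and without S03 and S04 (0.0003); with 1 library left out it ran from -0.072 to 0.0735, and *Eif4g2* from -0.0547 to 0.24. Falling genes of mTOR and MNK control numbered 2 with missing genes at 3 counts and 0 to 2 with 1 library left out (*Tsc1* lost without S01, S02, S03 or S06, *Mtor* gained without S04), and those of the stress response list 1 to 2 (*Atf4* lost without S01 or S02). The cause was not tested. No paired analysis was possible because the columns carry no replicate numbers. Depth limits *Eef1a2* most, with at most 7 counts in a library.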
